A study of Homo sapiens with 6 samples.

Results

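The 7 genes described here, CDX1, CDX2, KLF4, KLF5, GATA6, ATOH1 and MYB, encode transcription factors that set up and maintain the lineages of the intestinal epithelium. Each was found by its name in the deposited count table, where each stood on 1 line, so that they are 7 of 60835 gene names. Their mRNA was measured in SW620, a human colon cancer line that was established from a lymph node metastasis. A group labelled DNM1 knockdown, with a stable vector (shDNM1, 3 libraries), was set against cells with a control vector, labelled wild type (shControl, 3 libraries). The medium was high-glucose DMEM with serum for both groups, and the labels give no other treatment. DNM1 is the gene of dynamin 1, which cuts endocytic vesicles free of the cell membrane. The labels place the shDNM1 libraries in batch_B and the shControl libraries in batch_A, so in every comparison here the vector and the batch cannot be told apart. Whether the cells with a vector were 1 clone, and whether a group's libraries stem from different cultures, is not stated, so each p-value covers no more than the spread of these libraries, and that spread may be technical.

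In the intestine, CDX1 and CDX2 are homeodomain proteins that hold cells to the intestinal fate, with CDX2 acting as the main one in the adult gut. KLF5 is a zinc finger protein of dividing crypt cells, whereas KLF4 is its paralogue in differentiated cells of the surface and in goblet cells. GATA6 is a zinc finger factor of the crypt and of early endoderm, ATOH1 is the basic helix-loop-helix factor that opens the secretory lineage, and MYB is a factor of crypt progenitors that is often abundant in colorectal tumours.

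The library totals ran from 12844534 to 13537519 counts. Chi-square per gene between libraries was 3.78 to 8.16 within shDNM1 and 2.41 to 3.55 within shControl, so the shDNM1 libraries varied more, and no pair differed by as little as sampling noise. In shDNM1 replicate 2, 16347 genes reached 10 counts, while the other libraries had 16771 to 16896 such genes. DNM1 itself was read as a check of the labels. It had 126, 97.8 and 125 CPM in the libraries labelled shDNM1 (replicates 1 to 3), against 127, 127 and 133 CPM in the shControl libraries. CPM are counts scaled to a common library total, with TMM factors between libraries. DNM1 was not called, at a log2 fold change of -0.15 with an SE of 0.083 (edgeR's quasi-likelihood test, Benjamini-Hochberg adjusted p = 0.189), and without shDNM1 replicate 2 it was -0.037. It was called without shDNM1 replicate 1 (-0.20, edgeR adjusted p = 0.0399). The groups are therefore called by their labels, and no direction below is tied to a measured loss of DNM1 mRNA. Of the epithelial markers, KRT8 (6939 and 5776 CPM), KRT18 (1636 and 1332 CPM) and EPCAM (372 and 420 CPM) were abundant in the shDNM1 and shControl libraries. The colon markers CDH17, LGALS4, KRT20 and CEACAM5 averaged at most 1.42 CPM in either group. Other enterocyte genes had higher levels, with VIL1 at 328 CPM in shDNM1 and 349 CPM in shControl, USH1C at 145 and 119 CPM, CEACAM1 at 18.1 and 23.2 CPM and CDHR5 at 16.9 and 14.3 CPM in the same order.

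CDX2 and KLF5 were higher in the libraries labelled shDNM1, and MYB and GATA6 were lower. CDX2 was 2.47-fold higher and MYB was at 41.2% of its control level, whereas the change of KLF5 was 1.24-fold. GATA6 was at 64.6% of control, a call that rested on few counts. KLF4 did not pass the test, and CDX1 and ATOH1 had no count in any of the 6 libraries. The 5 factors with counts passed the filter on low counts, and 4 of them were called at an adjusted p of 0.05, 2 higher and 2 lower. Of the 16744 genes tested, 31.9% were called (15.6% higher and 16.2% lower), so a call alone does not mark these factors out. The 2617 higher and 2720 lower calls became 1801 and 2846 on log2(TPM + 1), and 1799 and 2837 on log2(TPM + 0.1). CDX2 and MYB also changed at least 2-fold, which held for 4.81% of the tested genes (1.86% higher and 2.96% lower). A larger absolute log2 fold change than that of CDX2 was seen in 2.53% of tested genes, and a larger one than that of MYB in 2.71%. In these bulk samples, fewer cells that express a gene and less RNA per cell cannot be told apart.

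**Figure D1:**
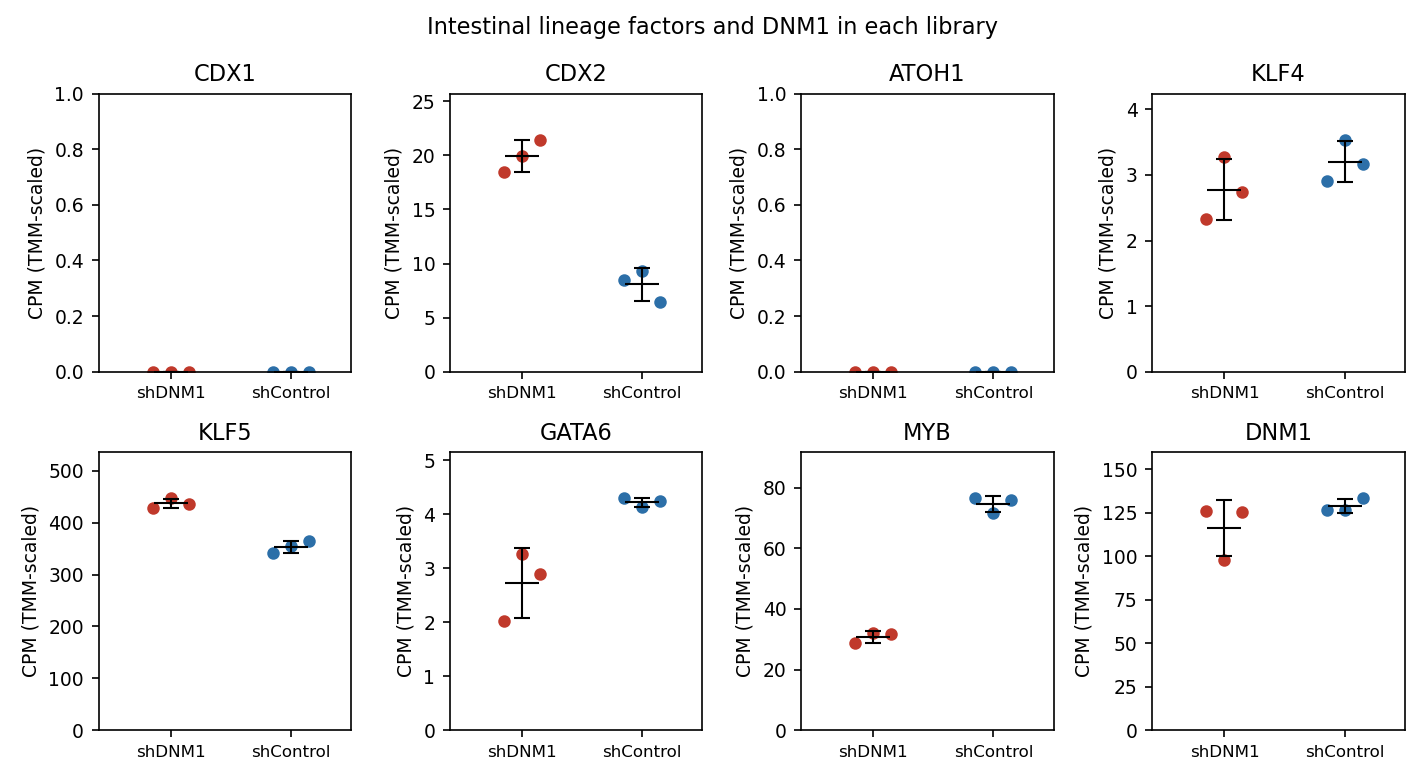
CPM (counts scaled to a common library total with TMM factors, linear axes from 0) of the 7 lineage factors and of DNM1 in each of the 3 shDNM1 libraries (left) and 3 shControl libraries (right). Points are libraries, and black marks are the mean and SD. The shDNM1 points lie above the shControl points for CDX2 and KLF5 and below them for GATA6 and MYB, the groups overlap for KLF4, and CDX1 and ATOH1 lie at 0.

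The proximal promoters of CDX2 and MYB are shown because these genes had the largest changes of the 7, in opposite directions. Each is the 250 bases before the RefSeq start (GRCh38.p14), 5′ to 3′ on the gene's strand. That of CDX2 is chr13:27969316-27969565 on the minus strand and that of MYB is chr6:135181058-135181307 on the plus strand. Capitals mark matches, on either strand, to the letters searched for the families of the 7 factors, given below, other than the GC box.
CDX2: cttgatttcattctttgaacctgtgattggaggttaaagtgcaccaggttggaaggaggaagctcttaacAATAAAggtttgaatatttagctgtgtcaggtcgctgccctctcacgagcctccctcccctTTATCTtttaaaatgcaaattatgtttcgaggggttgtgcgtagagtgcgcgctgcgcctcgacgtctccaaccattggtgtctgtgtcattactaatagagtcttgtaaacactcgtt
MYB: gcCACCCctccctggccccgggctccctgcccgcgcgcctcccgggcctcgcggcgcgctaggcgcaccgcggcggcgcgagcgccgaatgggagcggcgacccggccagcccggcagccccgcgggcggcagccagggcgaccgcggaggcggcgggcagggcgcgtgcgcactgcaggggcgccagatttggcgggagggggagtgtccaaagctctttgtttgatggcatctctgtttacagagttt
The letters searched were TTTATG and TTTATT for CDX, AGATAA and TGATAA for GATA, CACCC for KLF, CAACNG and TAACNG for MYB, CAGCTG and CAGATG for ATOH1, and the GC box GGGCGG, which is left in lower case. The CDX2 window held 1 CDX match, TTTATT on the opposite strand beginning 180 bases before the start, and 1 GATA match, AGATAA on the opposite strand beginning 119 bases before it. It held no match to the other letters. The MYB window held 1 CACCC match, 248 bases before the start, 1 GC box, 126 bases before it, and none of the others. No match overlapped another in these windows. Over 27305 RefSeq promoter windows of the same length, 23.2% held a CDX match, 14.9% a GATA match and 53.7% a CACCC match. A MYB match was held by 39.4%, an ATOH1 match by 24.2% and a GC box by 42.3%. None of these matches is thus particular to CDX2 or MYB. A match describes the letters only and is not shown to be a bound site. The windows differed in composition, with 45.2% G and C and 10 CpG in CDX2, against 75.6% and 34 CpG in MYB. Windows were found for 6 of the 7 factors, all but CDX1.

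CDX2 (ENSG00000165556, GRCh38 chromosome 13, 27960918 to 27969315, minus strand) is the factor whose loss in colorectal tumours accompanies poor differentiation. It had 238, 250 and 282 counts in the libraries labelled shDNM1, or 18.5, 19.9 and 21.4 CPM, against 111, 126 and 83 counts in the shControl libraries, or 8.51, 9.28 and 6.40 CPM. The lowest shDNM1 library was well above the highest shControl library, and the groups did not overlap, as was the case for 44.3% of all genes tested. The means were 19.9 ± 1.48 CPM in shDNM1 and 8.06 ± 1.49 CPM in shControl (SD, n = 3 each). The log2 fold change was 1.30 (SE 0.14, 95% interval 1.01 to 1.60) with an adjusted p of 1.66e-06 by edgeR's quasi-likelihood test. CDX2 stayed called without each library in turn, at log2 fold changes of 1.16 to 1.42.

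CDX1 (ENSG00000113722, chromosome 5, 150166778 to 150184558, plus strand), the closest relative of CDX2 in the gut, had 0 counts in each library. At these totals a count of 0 allows up to 3 counts, or 0.222 to 0.234 CPM in a library, and limits counting error only. Pooled over a group, the limit was 0.0766 CPM in shDNM1 and 0.0765 CPM in shControl. CDX1 mRNA was thus not detectable at this depth where CDX2 was higher or where it was lower. The third gene of the family, CDX4, also had 0 counts.

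KLF5 (ENSG00000102554, chromosome 13, 73054976 to 73077541, plus strand) was the most abundant of the 7 in TPM, the deposited level per transcript length. Its level was 429, 447 and 436 CPM in the libraries labelled shDNM1, against 341, 354 and 364 CPM in the shControl libraries. The groups did not overlap, and the gap between them was larger than the range within either. The means were 437 ± 8.89 CPM in shDNM1 and 353 ± 11.4 CPM in shControl (SD, n = 3 each), a log2 fold change of 0.31 (SE 0.058, 95% interval 0.19 to 0.43, edgeR adjusted p = 0.000493). Without each library in turn it was 0.29 to 0.33. The change was small, and against a minimum of 1.5-fold it was not called.

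KLF4 (ENSG00000136826, chromosome 9, 107484852 to 107490482, minus strand) had 30, 41 and 36 counts in the libraries labelled shDNM1, or 2.33, 3.27 and 2.74 CPM. In the shControl libraries it had 38, 48 and 41 counts, or 2.91, 3.54 and 3.16 CPM. The groups overlapped. The log2 fold change was -0.21 (SE 0.24) with an edgeR adjusted p of 0.556, and its 95% interval, -0.71 to 0.30, spans from 61.0% to 123% of the control level.

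KLF4 and KLF5 often act in opposite ways on the same genes in epithelial cells, and their ratio within a library does not depend on the scaling between libraries. The log2 ratio of KLF4 to KLF5 counts, with 0.5 added to each, was -7.50, -7.08 and -7.30 in the libraries labelled shDNM1, against -6.85, -6.63 and -6.83 in the shControl libraries. Each shDNM1 library had a lower ratio than each shControl library, by 0.52 on average. The two-sided exact permutation test gave p = 0.1, which is the lowest value possible with 3 against 3 and cannot pass 0.05.

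GATA6 (ENSG00000141448, chromosome 18, 22169589 to 22202528, plus strand) had 26, 41 and 38 counts in the libraries labelled shDNM1, or 2.02, 3.27 and 2.89 CPM. In the shControl libraries it had 56, 56 and 55 counts, or 4.29, 4.12 and 4.24 CPM. The shControl libraries were nearly equal, the shDNM1 libraries spread more widely and all lay lower. The log2 fold change was -0.63 (SE 0.23, 95% interval -1.12 to -0.14) with an edgeR adjusted p of 0.0474. The call ended when any library other than shDNM1 replicate 2 was left out: the adjusted p was 0.163 and 0.0774 without shDNM1 replicates 1 and 3, and 0.122, 0.0927 and 0.113 without shControl replicates 1, 2 and 3. An antisense gene, GATA6-AS1, overlaps 290 bases of GATA6 and had 0, 1 and 2 counts in shDNM1, against 6, 10 and 0 in shControl. Also on the opposite strand, AC091588.3 overlaps 1910 bases and had 1, 3 and 0 counts in shDNM1, against 0, 1 and 0 in shControl. AC091588.1 overlaps 1198 bases, with 1, 0 and 0 against 2, 1 and 1 counts. RNU6-702P overlaps 107 bases, with 0 counts in each library. Reads of GATA6 and of these genes cannot be told apart where they overlap if strand was not used in counting.

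ATOH1 (ENSG00000172238, chromosome 4, 93828753 to 93830964, plus strand) had 0 counts in each library, with the same limit of 0.222 to 0.234 CPM as CDX1. The factor that opens the secretory lineage was thus not detectable at this depth in either group.

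MYB (ENSG00000118513, chromosome 6, 135181308 to 135219173, plus strand) had 368, 403 and 415 counts in the libraries labelled shDNM1, or 28.6, 32.1 and 31.5 CPM. In the shControl libraries it had 997, 971 and 985 counts, or 76.4, 71.5 and 75.9 CPM. The groups lay far apart, and the highest shDNM1 library was below the lowest shControl library by more than the level of any shDNM1 library. The means were 30.8 ± 1.90 CPM in shDNM1 and 74.6 ± 2.70 CPM in shControl (SD, n = 3 each), a log2 fold change of -1.28 (SE 0.077, 95% interval -1.44 to -1.12, edgeR adjusted p = 1.36e-09). Without each library in turn it was -1.31 to -1.23. MYB-AS1, antisense within the MYB locus, had 0, 2 and 0 counts in shDNM1, against 4, 3 and 5 in shControl, where MYB had at least 368.

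**Figure D2:**
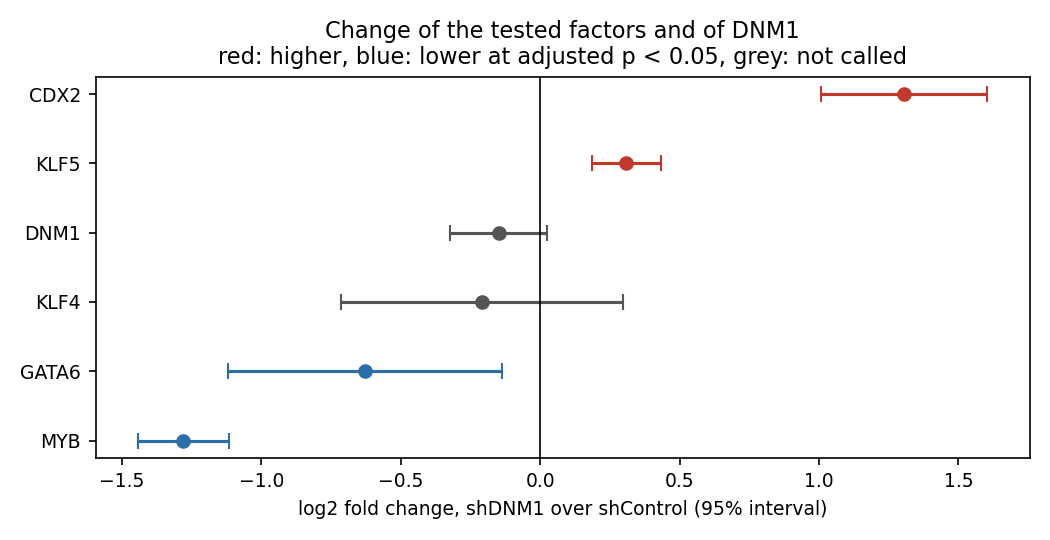
Log2 fold change, shDNM1 over shControl, of the 5 tested lineage factors and of DNM1, with 95% intervals from edgeR's quasi-likelihood fit. CDX2 and MYB stand on opposite sides of 0 at 1.30 and -1.28, KLF5 is at 0.31, and the intervals of KLF4 and DNM1 span 0.

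Levels of different genes were compared only per transcript length, with the TPM that the authors deposited. In the libraries labelled shDNM1 the order was KLF5 (382 ± 4.68 TPM), MYB (24.4 ± 1.07 TPM), CDX2 (16.9 ± 1.28 TPM), KLF4 (2.76 ± 0.38 TPM) and GATA6 (2.19 ± 0.46 TPM; SD, n = 3 each). In the shControl libraries it was KLF5 (321 ± 8.50 TPM), MYB (61.8 ± 2.99 TPM), CDX2 (7.12 ± 1.30 TPM), GATA6 (3.55 ± 0.12 TPM) and KLF4 (3.32 ± 0.28 TPM). The values of KLF4 and GATA6 overlapped in each group, and no other neighbours in the order did. MYB and CDX2 kept their order but drew together. In TPM, MYB was 1.45, 1.51 and 1.38 times CDX2 in the libraries labelled shDNM1, against 8.41, 7.21 and 11.1 times in the shControl libraries. This ratio was chosen after the values were seen and is given as a description.

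Each of the 5 tested factors had the same direction in all 21 alternatives. CDX2, KLF5 and MYB were called in each of the 19 alternatives with the same threshold and no minimum change, with adjusted p values of at most 0.00104, 0.00499 and 1.97e-05. GATA6 was called in 9 of the 19, with adjusted p values from 0.0299 to 0.163, and KLF4 in 0 of the 19, with adjusted p values from 0.343 to 0.824.

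**Figure D3:**
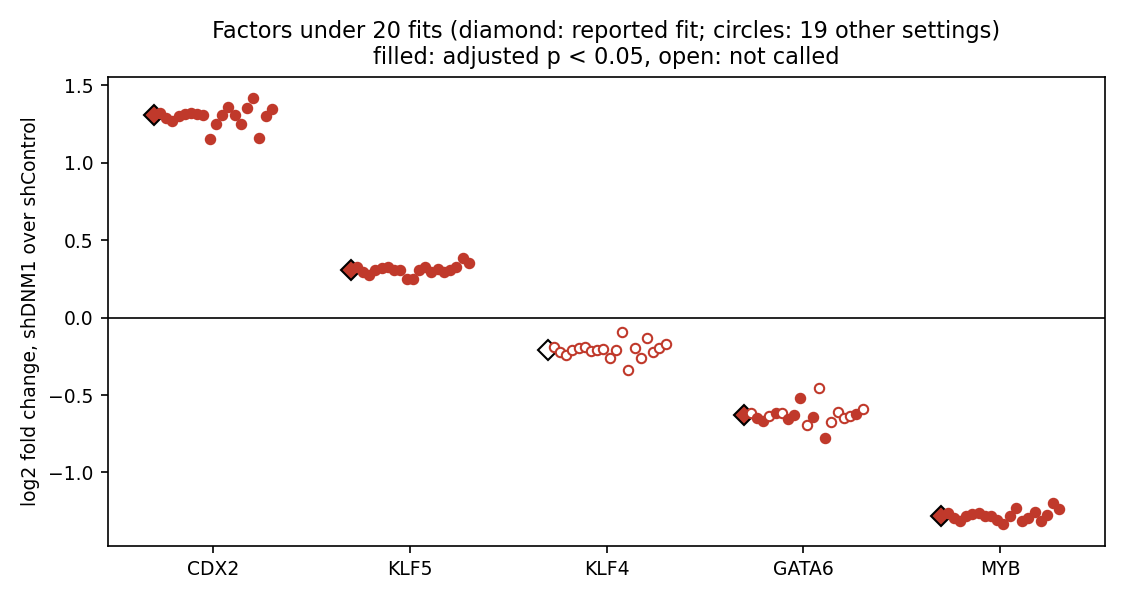
Log2 fold change, shDNM1 over shControl, of the 5 tested factors in the reported fit (diamonds) and 19 other settings (circles), filled where the adjusted p was under 0.05. CDX2, KLF5 and MYB are filled throughout, KLF4 is open throughout, and 9 of the 19 GATA6 circles are filled.

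The nearest protein-coding genes on the chromosome were read from the deposited coordinates, with 2 on each side of a factor. HBS1L, a translation factor gene 78.3 kb from MYB, was 1.22-fold higher in the libraries labelled shDNM1 (edgeR adjusted p = 0.00356), opposite to MYB. AHI1, a ciliary gene 64.2 kb away on the other side, averaged 67.9 CPM in shDNM1 and 65.2 CPM in shControl and did not pass (edgeR adjusted p = 0.719). The neighbours of CDX2 were PDX1, GSX1, URAD and FLT3. Each averaged at most 0.650 CPM in either group and none passed the filter on low counts. The nearest neighbour of KLF5, PIBF1 at 38.5 kb, averaged 60.1 CPM in shDNM1 and 52.8 CPM in shControl and did not pass (edgeR adjusted p = 0.231). KLF12, a paralogue 609 kb away, was 1.22-fold higher (edgeR adjusted p = 0.0455). DIS3, an exosome nuclease gene 273 kb away, was 1.15-fold higher (edgeR adjusted p = 0.0343). TBC1D4, a Rab GTPase-activating protein gene 2206 kb away on the same side as KLF12, fell to 78.0% of control (edgeR adjusted p = 0.0265). The calls of KLF12, DIS3 and TBC1D4 held in 9, 12 and 10 of the 19 alternatives. CDX1 had no counts, whereas PDGFRB, a receptor gene 10.9 kb away, was at 4.93 CPM in shDNM1 and 1.85 CPM in shControl (edgeR adjusted p = 0.000661). Of the 14 neighbours tested, 7 were higher and 2 lower, against 15.6% higher and 16.2% lower among all genes tested. These neighbours lay 10.9 to 2223 kb from a factor, and a link between their calls and that position was not tested.

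Genes with the most similar pattern were sought by the smallest root mean square distance of log2 CPM, centred over the 6 libraries, among 10717 or 10718 protein-coding genes with an average log2 CPM of at least 2. Such a distance selects genes with the same change between the groups, so their changes are a description. Closest to CDX2 were DUSP8, a MAP kinase phosphatase gene (distance 0.078), LGALS7B, a galectin gene with a near-identical copy and therefore uncertain (0.081), and the deubiquitinase gene OTUB2 (0.092). Closest to MYB were PEG10, an imprinted gene derived from a retrotransposon (0.043), the sodium-potassium-chloride cotransporter gene SLC12A2 (0.053) and the kinase gene MAP4K4 (0.059). PEG10 had 125 CPM in shDNM1 and 308 CPM in shControl. For KLF5 they were RELA (0.017), AK4 (0.019) and HAPSTR1 (0.019), and for GATA6 they were ZNF48 (0.056), FUCA1 (0.063) and TST (0.070).

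Paralogues of the 7 factors were examined next. Of 25 genes, 14 were tested, 6 were higher, 3 lower and 5 did not pass, and their median log2 fold change was 0.07, against -0.01 over all genes tested. For this list and those below, the shares called among all genes tested were 15.6% higher and 16.2% lower. GATA2, a factor best known in blood and endothelium, was 1.65-fold higher at 21.2 ± 0.77 CPM in shDNM1, against 12.8 ± 1.67 CPM in shControl (SD, n = 3 each; edgeR adjusted p = 0.000143). KLF16, a repressor of the same family as KLF5, was 1.65-fold higher, KLF13 was 1.54-fold and KLF6 was 1.43-fold higher, and KLF10 and KLF12 were also called. KLF3, a repressor that recruits CtBP, fell to 72.7% of control, KLF2 to 67.1% and MYBL2, the cell cycle relative of MYB, to 84.0%. MYBL1 averaged 11.6 CPM in shDNM1 and 12.6 CPM in shControl and did not pass (edgeR adjusted p = 0.550). GATA4, a partner of GATA6 in the proximal intestine, had 0 counts.

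Of 20 other intestinal and endodermal transcription factors, 16 were tested, 3 were higher, 5 lower and 8 did not pass (median log2 fold change -0.10). ASCL2, a factor of crypt stem cells, was 1.35-fold higher at 127 ± 5.46 CPM in shDNM1, against 93.7 ± 2.92 CPM in shControl (SD, n = 3 each; edgeR adjusted p = 5.09e-05). FOXA3 was 1.39-fold and HNF4A, a nuclear receptor of differentiating enterocytes, 1.19-fold higher. ONECUT2 fell to 62.4% and FOXA2 to 76.4% of control, and HES1 and VDR were also lower. The number that were lower was 3, 2, 3 and 2 without shDNM1 replicates 2 and 3 and shControl replicates 2 and 3, and the number that were higher was 2 without either shDNM1 replicate 3 or shControl replicate 3. SOX9 and HNF4G did not pass.

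Secretory lineage factors were mostly at or near 0. Of 16 listed, 5 were tested, and NEUROG3, NEUROD1, PAX4 and NKX2-2 had 0 counts, as had ATOH1, which was not counted in this list. PAX6, an enteroendocrine factor, was 1.59-fold higher at 15.3 ± 2.65 CPM in shDNM1, against 9.58 ± 1.12 CPM in shControl (SD, n = 3 each; edgeR adjusted p = 0.0019). BHLHA15, a factor of secretory cell structure, was 1.65-fold higher (edgeR adjusted p = 0.000903). GFI1, ISL1 and SOX4 had log2 fold changes of -0.27, -1.09 and -0.14 and did not pass. Their unadjusted edgeR p-values were 0.0168, 0.0206 and 0.0372. Called lower were 0 factors with edgeR and with DESeq2, 1 with limma-voom and 3 with edgeR without shDNM1 replicate 2.

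Genes of the cell types that these factors specify were counted next. Of 42 enterocyte genes, 13 were tested, 1 was higher, 1 lower and 11 did not pass (median log2 fold change -0.09). Of the 42, 11 had 0 counts, among them SI. USH1C, a brush border scaffold gene, was 1.22-fold higher (edgeR adjusted p = 0.00465) and CEACAM1, an adhesion gene, fell to 77.8% of control (edgeR adjusted p = 0.0209). The number that were lower was 0 without shDNM1 replicate 2 or 3 or shControl replicate 2, and 3 without shDNM1 replicate 1. FABP1, a fatty acid carrier gene, averaged 0.801 CPM in shDNM1 and 1.62 CPM in shControl and did not pass (edgeR adjusted p = 0.0688). GPA33 and CDHR5 had log2 fold changes of -0.81 and 0.24 and did not pass. CDH17 averaged 1.42 ± 0.33 CPM in shDNM1 and 1.18 ± 0.51 CPM in shControl (SD, n = 3 each). It did not pass (edgeR adjusted p = 0.640), and targets of CDX2 were not examined as a set.

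Of 20 goblet and Paneth cell genes, 7 were tested, 3 were higher, 2 lower and 2 did not pass (median log2 fold change -0.45). MUC2, the gel-forming mucin of goblet cells, had 10.9 ± 2.54 CPM in shDNM1 and 2.30 ± 0.061 CPM in shControl (SD, n = 3 each; edgeR adjusted p = 2.54e-07). KLK1, a kallikrein of goblet cells, was 2.22-fold and TFF3, a trefoil peptide, 1.24-fold higher, whereas LYZ, the Paneth cell lysozyme, fell to 45.0% and the Notch ligand gene DLL4 to 73.2% of control. Without shControl replicate 1 or 2 the number that were higher was 2. In the same libraries the goblet genes SPINK4, CLCA1 and REG4 had 0 counts. Of 16 enteroendocrine genes, 6 were tested, 2 were higher, 2 lower and 2 did not pass (median log2 fold change 0.02). Together the 16 genes summed to 30.0 to 33.8 CPM in shDNM1 and 19.6 to 23.6 CPM in shControl. The hormone gene GAST and the secretogranin gene SCG2 were 22.3-fold and 3.44-fold higher, CHGB fell to 45.9% and CPE to 69.8% of control, and TPH1 did not pass. Given these sums, GAST had a low level in shControl, and its fold rests on that level. The number that were lower was 1, 0, 1 and 1 without shDNM1 replicates 1 and 3 and shControl replicates 1 and 3.

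Of 15 genes linked to KLF4 and KLF5, 13 were tested, 3 were higher, 4 lower and 6 did not pass (median log2 fold change 0.02). FGFBP1, a KLF5-activated gene that carries fibroblast growth factors, was 1.54-fold higher (edgeR adjusted p = 0.000237), CCND1 was 1.29-fold and the CDK inhibitor gene CDKN1C 1.85-fold higher. CCNE1 fell to 30.4% of control, and CCND2 and CDKN1B were also lower. CDKN1A, the CDK inhibitor gene that KLF4 activates, averaged 6.10 CPM in shDNM1 and 5.44 CPM in shControl and did not pass (edgeR adjusted p = 0.564). ALPI and EGFR were not tested because of low counts.

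**Figure D4:**
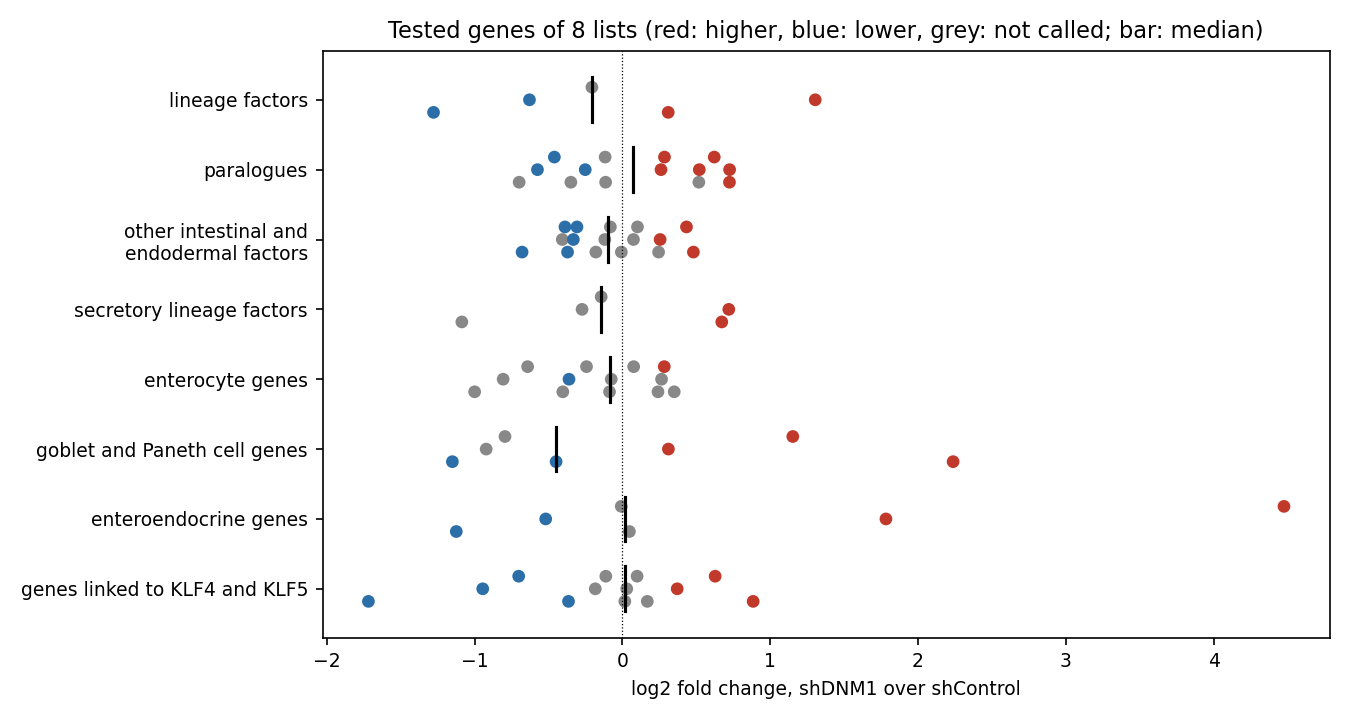
Log2 fold change, shDNM1 over shControl, of the tested genes of 8 lists, with red for higher, blue for lower and grey for not called, and a black bar at each list's median. Higher and lower genes occur together in 7 of the lists, and the secretory lineage factors have no gene that was called lower in the fit of all 6 libraries.

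Markers of the sampled and of other cell types moved as follows. Of 10 colon epithelium markers 8 were tested, and KRT8, KRT18, KRT19 and CDH1 were higher and EPCAM lower (CDH1 in 9 of the 19 alternatives), with a summed level of 9901 to 11214 CPM in shDNM1 and 8551 to 9343 CPM in shControl. Of 8 fibroblast markers 3 were tested and LUM and PDGFRB were higher, with a summed level of 42.8 to 57.3 CPM in shDNM1 and 31.3 to 38.9 CPM in shControl, while COL3A1 had 0 counts and COL1A2, DCN and PDGFRA at most 0.050 CPM on average. Of 5 endothelium markers 2 were tested and VWF was higher (in 8 of the 19 alternatives), with sums of 17.9 to 22.8 CPM in shDNM1 and 16.9 to 20.3 CPM in shControl and KDR at 0. The 6 leukocyte markers summed to 0.478 to 0.608 CPM in shDNM1 and 0.737 to 1.08 CPM in shControl, with CD3E at 0. Of 6 kidney markers only PAX8 was tested, and it did not pass (sums of 20.2 to 26.3 CPM in shDNM1 and 21.5 to 24.9 CPM in shControl, with UMOD and SLC12A1 at 0). The part of these marker differences in the values of the 7 factors was not tested.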

How the data were processed

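RNA of 6 SW620 libraries was sequenced, and groups follow the sample titles. The values are the authors' deposited read counts, whole numbers for each gene without normalisation, made on GRCh38 per the submitters' processing notes. Aligner, counter, annotation and strand use: not given in the sources used here. The authors' deposited TPM were handled as a score, since a column sums to 1000000 only after repeated names are collapsed. Of 62710 lines, 2328 carried one of 453 repeated names with identical values. Unused columns of per-sample values numbered 0. Totals of 12844534 to 13537519 counts limit the precision of genes with few counts, and floors cover counting error only.

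The count test was edgeR 4.0.16 (R 4.3.3) with filterByExpr, TMM scaling and the two-sided quasi-likelihood F test, adjusted by Benjamini-Hochberg over 16744 genes at a threshold of 0.05. On simulated counts with 200 changed genes, it recovered 28% of 1.25-fold, 79.6% of 1.5-fold, 88% of 2-fold and 100% of 4-fold changes, with 9 false calls. Far fewer genes were changed there than were called in the data, so these shares need not hold here. The ratio of KLF4 to KLF5 and the CPM of DNM1 and of the factors with counts were compared with exact permutation tests (scipy 1.17.1). For CPM, the exact permutation test gave p = 0.1, the lowest possible, for DNM1, CDX2, KLF5, GATA6 and MYB, and 0.3 for KLF4. With 3 against 3 libraries this test cannot pass 0.05. Alternatives were RLE, upper quartile and library size scaling, DESeq2 1.42.0, a filter at 1 CPM in 3 libraries or none, limma 3.58.1 (voom, or log2(TPM + 0.1) and log2(TPM + 1) with a trend), a robust fit, a threshold of 0.01, glmTreat at 1.5-fold, a replicate block and leaving out each library. GC and length trend removal were alternatives chosen after seeing the data, and 96.8% of tested genes had a GC value from GENCODE transcripts. Promoter sequences are from RefSeq on GRCh38.p14.

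The 7 factors and the lists were chosen with earlier results of these data known. The genes named by rule are the 7 factors, DNM1, up to 5 tested genes of each list with the smallest p, and the 3 genes most similar to each called factor. Other genes, such as CDH17, CDKN1A, KLF2, MYBL2 and the chromosomal neighbours, were named after their values were seen. The results of some single genes that the lists count are not reported here.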

Additional observations from a re-analysis of the deposited data

How the results depend on the processing

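CDX2, MYB and KLF4 kept their direction and their side of the threshold under all 21 alternatives, at log2 fold changes of 1.15 to 1.42, -1.33 to -1.20 and -0.34 to -0.09. KLF4, which was not called in the reported fit, could not become called with glmTreat or at 0.01. For every tested factor, glmTreat, the threshold of 0.01 and the robust fit gave the log2 fold change of the reported fit and add nothing on direction. KLF5 kept both under 20 and was no longer called against a minimum of 1.5-fold (0.31). GATA6 kept its direction under 21 but was not called under 12: scaling by RLE (-0.62), no low-count filter (-0.63), DESeq2 (-0.62), log2(TPM + 0.1) (-0.69), glmTreat (-0.63), a threshold of 0.01 (-0.63), length trend removed (-0.59) and 5 of the 6 fits without 1 library (-0.78 to -0.45 over the 6). The cause was not tested. The factors called lower numbered 1 under each of these (1 to 2 without 1 library), and those called higher 1 under glmTreat. The factors at 0, CDX1 and ATOH1, gave no value under any alternative. DNM1 was called lower without shDNM1 replicate 1 and with the GC trend removed (-0.20 in each, range -0.20 to -0.037 over the 6 fits without 1 library).

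Of all genes, 5337 were called, against 591 with glmTreat and 3503 at 0.01, and 3990 to 5890 without 1 library. With glmTreat 0 were called for paralogues (higher and lower), other intestinal and endodermal factors (higher and lower), secretory factors (higher), enterocyte genes (higher and lower), goblet and Paneth cell genes (lower), enteroendocrine genes (lower) and KLF-linked genes (higher), and 2 KLF-linked genes were lower. At 0.01, 2 other intestinal and endodermal factors, 0 enterocyte and 0 enteroendocrine genes were lower. Secretory factors called lower numbered 2 with upper quartile, library size alone and log2(TPM + 1), 1 with limma-voom and with the GC trend removed, and 3 with log2(TPM + 0.1), where 0 enterocyte genes were higher. Without 1 library, those lower were 2 to 4 for other intestinal and endodermal factors, 0 to 3 for secretory factors, 0 to 3 for enterocyte genes and 0 to 2 for enteroendocrine genes.

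Same-numbered libraries of the groups correlated at 0.102, 0.0634 and -0.033 in their deviations, and the other pairs at -0.0979 to 0.0334. With 3 libraries in each group, these values cannot decide whether the numbers pair the libraries. With the replicate block, 6080 genes and 3 secretory factors (lower) were called, and the log2 fold changes of CDX2, MYB, KLF5, GATA6 and KLF4 were 1.31, -1.28, 0.31, -0.64 and -0.21. GATA6 and KLF4 had 26 to 56 counts a library, and the part of depth in their calls was not tested.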
